A study of Mus musculus with 24 samples.

Results

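The control hearts of 2 surgical cohorts were compared with each other. The samples are the 8 sham-operated mouse hearts of the series, 4 labelled Sham-HF and 4 labelled Sham-LVH, out of 24 heart libraries in 6 groups of 4, and they were chosen by their labels alone. The shams accompany hearts with transverse aortic constriction (TAC, in which a tie around the aorta makes the left ventricle pump against raised pressure): Sham-LVH (left ventricular hypertrophy) stands beside hearts with TAC for 2 weeks (TAC-LVH), and Sham-HF (heart failure) beside hearts with TAC for 8 weeks (TAC-HF). Every sham mouse was of strain C57BL/6 and had a sham operation only, and no group carries an engineered allele. The TAC groups and the unoperated, sedentary mice used as a reference are of the same strain. Total RNA from frozen hearts was sequenced after depletion of ribosomal RNA. The labels give neither the time after the sham operation, nor age, sex, time of day at collection or surgical date, and they do not say which part of the heart was taken. Cohort and time therefore cannot be told apart, and nothing in the labels states that the replicates came from separate animals, so that p-values measure the spread between these libraries.

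Control hearts are often taken to be alike, but several programmes of the heart change with feeding, handling, age and hour of the day. The circadian clock of cardiomyocytes is a feedback loop in which BMAL1 (gene Arntl) pairs with CLOCK or NPAS2 and switches on the Per, Cry and Nr1d genes and the PAR bZip genes Dbp, Tef and Hlf, whose products act back on the loop, so that Arntl and its targets peak at opposite phases. PGC-1alpha and PPAR-alpha set the use of fatty acids as fuel and respond to fasting and to the clock. Resident macrophages and fibroblasts make up part of the nonmuscle cells of the heart and respond to injury.

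The total count per sham library ranged from 18972525 to 30353572, of which 6560537 to 11113137 lay outside mitochondrially encoded genes. The mitochondrial share of counts was 62.3% ± 1.96 (SD, n = 4) in Sham-LVH and 64.1% ± 2.51 in Sham-HF (two-sided exact permutation test, p = 0.314, and 0.411 adjusted for 17 shares and totals). The lowest adjusted p of these 17 tests was 0.324, and the smallest p that 4 against 4 libraries allow is 0.0286. The 2 deposited 7SL RNA genes held 4.75% ± 0.504 and 3.90% ± 0.619 of the counts (exact permutation p = 0.0857, adjusted p = 0.324). Cardiomyocyte markers were abundant in all 8 libraries, with 10 genes summing to between 54248 and 61898 counts per 1000000 (CPM, over library totals adjusted by TMM, a correction for differences in RNA composition). Thymus markers summed to at most 0.234 CPM and lung and airway markers to at most 0.249 CPM. The Y-linked gene Ddx3y lay between 34.9 and 49.9 CPM in all 8 shams.

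A limited set of genes separated the cohorts. Of 13656 genes tested, 497 (3.64%) were called (edgeR's quasi-likelihood test, Benjamini-Hochberg adjusted p under 0.05), 301 (2.2%) higher and 196 (1.44%) lower in Sham-HF. The 4 values of one group lay entirely to one side of the 4 of the other for 481 of the 497 called genes, and for 12.8% of all genes tested. The median log2 fold change (Sham-HF against Sham-LVH, as throughout) was -0.01 over all genes and the median size among called genes was 0.60, and 36 called genes differed by 2-fold or more upward and 37 downward. In a principal component analysis the first component held 32.3% of the variance and placed the Sham-LVH libraries at -33.6 to -5.25 and the Sham-HF libraries at 11.2 to 28.3. The distance between 2 libraries (root mean square difference of log2 CPM) was 0.367 to 0.466 within Sham-LVH, 0.395 to 0.488 within Sham-HF and 0.417 to 0.603 between the groups.

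The number of called genes leaned on single libraries. Without Sham-HF-3 only 57 genes were called and without Sham-LVH-2 only 92, whereas without Sham-LVH-1 there were 1081. The counts were 198 without Sham-LVH-3, 254 without Sham-LVH-4, 219 without Sham-HF-1, 423 without Sham-HF-2 and 275 without Sham-HF-4. All 497 genes kept their direction in each of these 8 fits. A core of 50 genes, 30 higher and 20 lower in Sham-HF, was called in all 8, called the core from here on. The split of calls moved with the scaling: 301 higher and 196 lower with TMM became 237 and 240 with upper-quartile factors and 111 and 252 with library totals alone.

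**Figure D1:**
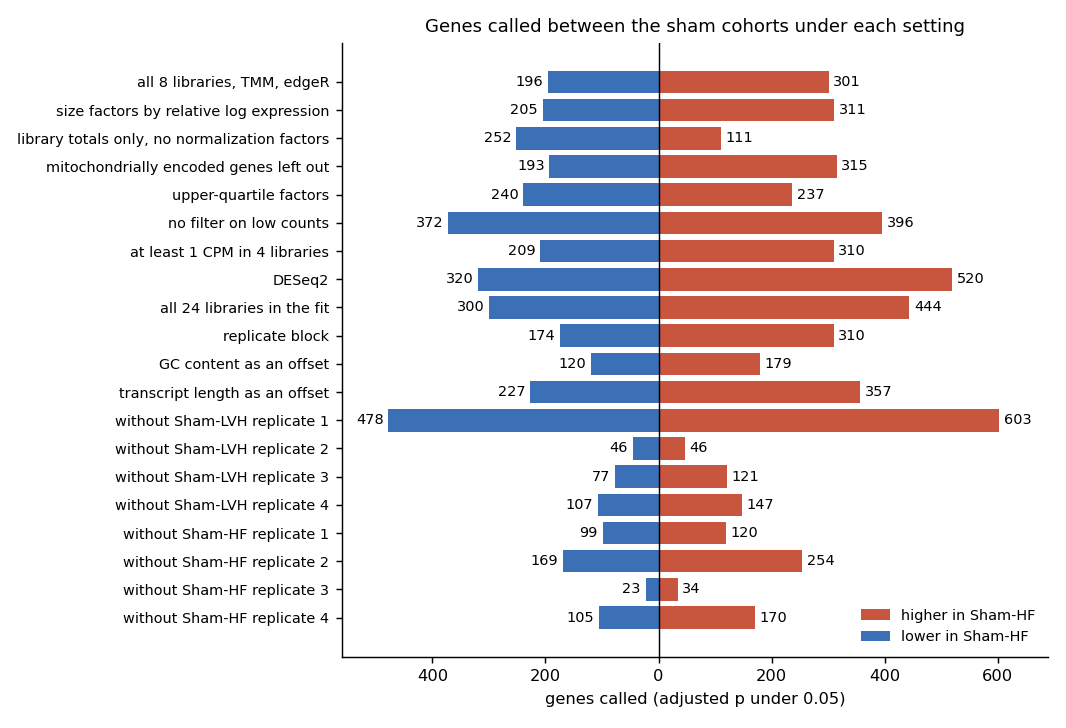
Genes called between the sham cohorts under each setting. Bars to the right count genes higher in Sham-HF and bars to the left genes lower in Sham-HF (both axes in genes). The first bar pair is the result reported, 301 higher and 196 lower. The shortest pair, without Sham-HF replicate 3, counts 34 and 23.

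Called genes of the circadian clock differed in opposite directions according to the list that holds them. The first list holds the activating arm with the Cry genes and the repressor gene Nfil3, and is called the activating arm below. Of its 10 genes, 4 were higher in Sham-HF (Arntl, Npas2, Clock and Nfil3) and none lower, with a list median of 0.28. In the arm driven through E-boxes, the DNA sites of BMAL1, 4 of 12 were lower (Ciart, Hlf, Tef and Nr1d2) and none higher, with a list median of -0.95. Of all genes tested, 2.2% were called higher and 1.44% lower. The summed CPM of each list did not overlap between the groups: 113 to 126 against 137 to 157 for the activating arm, and 380 to 406 against 176 to 303 for the E-box arm.

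Arntl (ENSMUSG00000055116) had the largest difference of any gene called higher. It stood at 0.641, 0.786, 0.221 and 1.49 CPM in Sham-LVH-1 to 4 and at 11.7, 7.37, 12.2 and 4.15 CPM in Sham-HF-1 to 4. Each Sham-HF library lay above each Sham-LVH library, with Sham-HF-4 the lowest of its group and Sham-LVH-4 the highest of its own. The fitted difference was 11.3-fold (log2 fold change 3.50 with SE 0.51, adjusted p = 0.0167 by edgeR). Leaving out Sham-LVH-2 or Sham-HF-3 removed the call (edgeR adjusted p 0.0602 and 0.0541). Sedentary hearts ranged from 4.00 to 10.7 CPM, and so covered 2 of the 4 Sham-HF values and none of the Sham-LVH values.

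The partners of BMAL1 were also higher and both belong to the core of 50 genes. Npas2 (ENSMUSG00000026077) stood at 0.534, 0.393, 0.517 and 1.139 CPM in Sham-LVH and at 2.53, 3.38, 3.26 and 1.695 CPM in Sham-HF. The difference was 4.14-fold (log2 fold change 2.05 with SE 0.31, adjusted p = 0.00862 by edgeR). Clock (ENSMUSG00000029238) stood at 23.0, 26.3, 22.9 and 32.3 CPM against 43.9, 39.2, 43.1 and 38.1 CPM (log2 fold change 0.67 with SE 0.11, adjusted p = 0.0107 by edgeR). In both genes the libraries numbered 4 lay closest to each other. Nfil3, a repressor that binds the same D-box sites as the PAR bZip factors, reached 9.94 CPM in Sham-HF-1 but 2.86 in Sham-HF-4, level with Sham-LVH-2 at 2.86 CPM (log2 fold change 1.43, edgeR adjusted p = 0.0372). Its call held only when Sham-HF-4 was the library left out, with adjusted p of 0.0628 to 0.131 in the other 7 fits. The repressor gene Cry1 stood at 2.98 to 4.80 CPM in all 8 shams (log2 fold change -0.14, edgeR adjusted p = 0.656).

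The PAR bZip genes Hlf and Tef and the repressor genes Ciart and Nr1d2 were lower in Sham-HF, whereas the repressor genes Cry1, Per1 and Nr1d1 were not called. Hlf (ENSMUSG00000003949) stood at 18.4, 16.8, 18.9 and 15.8 CPM in Sham-LVH and at 3.87, 6.16, 6.06 and 8.30 CPM in Sham-HF (log2 fold change -1.51 with SE 0.18, adjusted p = 0.00349 by edgeR), and belongs to the core. Its groups lay far apart, with no Sham-HF heart above 8.30 CPM. Ciart (ENSMUSG00000038550), which encodes a repressor of BMAL1 and CLOCK, stood at 3.17, 5.39, 6.16 and 3.56 CPM against 1.06, 1.04, 1.202 and 2.105 CPM (log2 fold change -1.76 with SE 0.28, adjusted p = 0.0107 by edgeR). Only the fit without Sham-HF-3 lost its call (adjusted p = 0.0508). Tef stood at 92.5, 92.9, 109 and 79.3 CPM against 26.8, 37.9, 28.9 and 57.8 CPM (log2 fold change -1.29, edgeR adjusted p = 0.0288). Nr1d2, a nuclear receptor that represses Arntl, stood at 73.6 to 85.1 CPM against 37.1 to 63.1 CPM (log2 fold change -0.73, edgeR adjusted p = 0.0205). Sham-HF-4 was the Sham-HF library nearest to Sham-LVH in all 4 genes. Tef lost its call without Sham-LVH-2, Sham-LVH-3, Sham-HF-2 or Sham-HF-3 (adjusted p 0.0776, 0.108, 0.053 and 0.0718), and Nr1d2 without Sham-LVH-2, Sham-LVH-3 or Sham-HF-3 (0.0718, 0.0767 and 0.072).

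Other members of this arm were not called. Dbp stood at 33.2, 30.6, 30.8 and 34.5 CPM in Sham-LVH, a narrow range, and at 3.41, 8.63, 2.76 and 21.8 CPM in Sham-HF, a wide one (log2 fold change -1.83, edgeR adjusted p = 0.171). Its groups did not overlap, and without Sham-HF-4 it was called (adjusted p = 0.0200). Per3 stood at 29.8 to 41.5 CPM against 4.28, 9.06, 5.76 and 19.2 CPM (log2 fold change -1.85, edgeR adjusted p = 0.0773, and 0.00202 without Sham-HF-4). Per2 stood at 15.6, 14.7, 19.8 and 10.4 CPM against 9.21, 5.42, 4.11 and 7.89 CPM (log2 fold change -1.17, edgeR adjusted p = 0.0527), and was called without Sham-LVH-4 or Sham-HF-1 (0.0400 and 0.0410). DESeq2 called Per2 and Per3 (adjusted p 0.000203 and 0.00581) and did not call Dbp (0.0846). Per1, which also responds directly to glucocorticoids and cyclic AMP, was highest in Sham-HF-2 (32.8 CPM) and lowest in Sham-LVH-4 (9.93 CPM), and the fold change was -0.00 on the log2 scale (edgeR adjusted p = 0.996). Nr1d1 overlapped between the groups, at 14.5 to 44.6 CPM and 25.1 to 42.7 CPM, and its highest value in each group was that of replicate 4. Wee1, a cell cycle kinase gene controlled by the clock and chosen after its values were seen, stood at 3.45 to 6.16 CPM against 1.99 to 2.50 CPM (log2 fold change -1.02, edgeR adjusted p = 0.0146, and 0.0524 without Sham-HF-3).

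**Figure D2:**
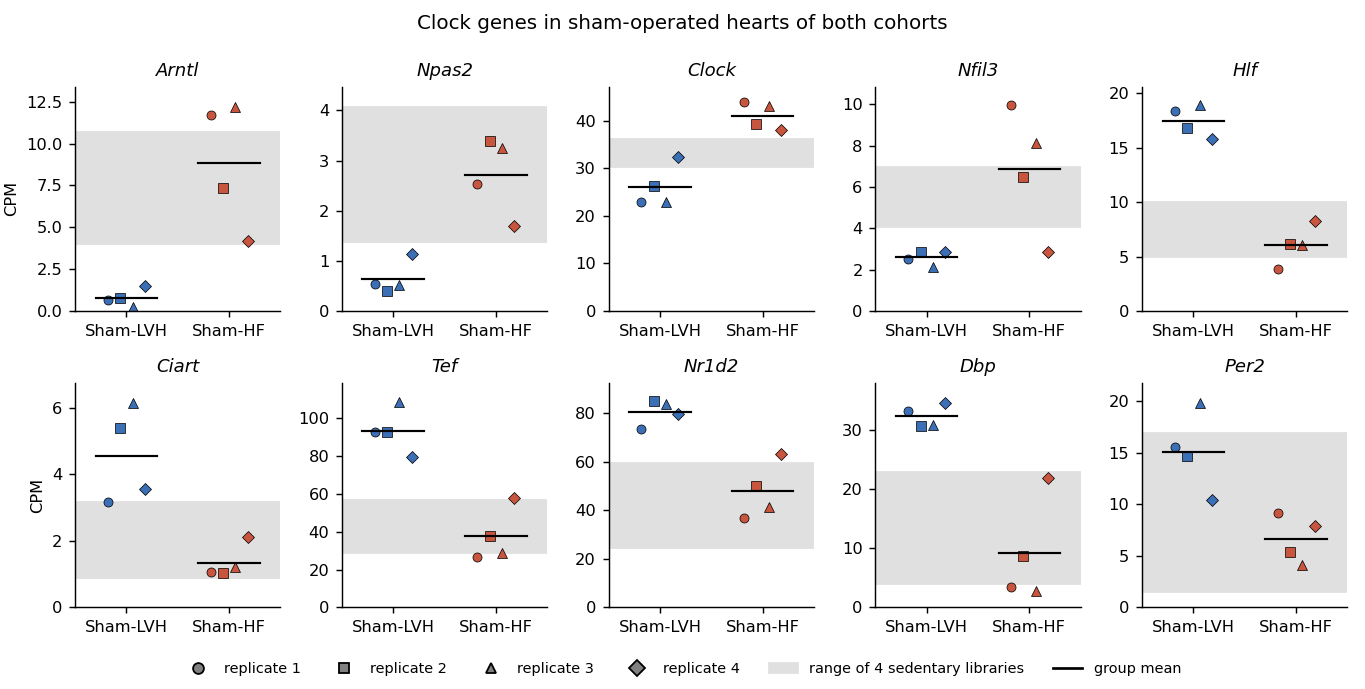
Clock genes in the 8 sham hearts. Each panel shows 1 gene on a linear axis of CPM that starts at 0, with 1 point per library, replicate numbers as symbols, group means as lines and the range of the 4 sedentary libraries in grey. Arntl, Npas2, Clock and Nfil3 have higher means in Sham-HF and the other 6 genes lower means, and Sham-HF replicate 4 lies nearest to the Sham-LVH values for Arntl, Npas2, Clock, Nfil3 and the lower genes except Per2.

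Start-site sequences of 4 of these genes are given because they carry the motifs by which the loop is known to act; most windows of the clock genes do not hold them. The windows are from RefSeq on GRCm38.p6, from 250 bases before to 50 bases after each annotated start, and positions are counted from the first transcribed base. Capitals mark the E-box CACGTG, which reads the same on both strands, in Ciart and Tef, and the letters TAGGTCA, a core of the sites of ROR and NR1D receptors, searched on both strands and sharing no bases with an E-box, in Nfil3 and Arntl (in Nfil3 as TGACCTA on the strand printed).
Ciart, chr3:95882229-95882378, minus strand: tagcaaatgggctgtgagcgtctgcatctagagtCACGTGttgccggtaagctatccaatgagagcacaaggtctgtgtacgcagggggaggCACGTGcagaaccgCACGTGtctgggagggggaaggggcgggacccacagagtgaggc
Tef, chr15:81802523-81802672, plus strand: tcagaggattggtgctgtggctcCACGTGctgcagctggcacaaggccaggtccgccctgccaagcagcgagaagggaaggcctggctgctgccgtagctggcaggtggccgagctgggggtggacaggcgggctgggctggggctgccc
Nfil3, chr13:52981040-52981189, minus strand: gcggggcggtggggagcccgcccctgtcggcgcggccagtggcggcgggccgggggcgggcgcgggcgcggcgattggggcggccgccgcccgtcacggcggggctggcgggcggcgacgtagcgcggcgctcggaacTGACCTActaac
Arntl, chr7:113207531-113207560, plus strand: aggcagaaagTAGGTCAgggacggaggtgc
Ciart held 3 E-boxes, which begin 116, 58 and 44 bases before the start, and Tef held 1, which begins 127 bases before it. In Nfil3 the TAGGTCA match begins 12 bases before the start and in Arntl it begins at position 30 after it. The windows of Ciart, Tef and Nfil3 run over the 150 bases before the start, and that of Arntl is the 30 bases around its match.

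Across the called genes the share with an E-box was close to that of all tested genes. An E-box stood in 4 of the 10 genes of the E-box arm that the table holds (Bhlhe41, Ciart, Per1 and Tef) and in 1 of 8 of the activating arm (Cry1). Counted by gene, with 32851 windows of 27025 genes, CACGTG stood in 8.09% of all genes, 11.7% of tested genes, 11.9% of genes called higher and 10.2% of genes called lower. TAGGTCA stood in 2 of 8 genes of the activating arm (Arntl and Nfil3), 2.97% of all genes, 2.19% of tested genes, 4.66% of genes called higher (11 genes, Arntl and Nfil3 among them) and none of the 147 genes called lower. The table matched 236 of the genes called higher and 147 of those called lower. A match describes letters in these windows and is not a measured binding site.

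Some targets of PPAR-alpha and fasting were higher in Sham-HF. Of 18 tested targets of PPAR-alpha and fasting, 5 were higher (Ppargc1a, Pdk4, Plin4, Mgll and Ppara) and none lower, with a median of 0.31, and the list summed to 691 to 849 CPM in Sham-LVH and 1108 to 1210 CPM in Sham-HF. Among all genes tested, 2.2% were called higher. Ppargc1a (ENSMUSG00000029167), the gene of PGC-1alpha, the coactivator that drives mitochondrial and fatty acid genes, had the smallest p of all genes. It stood at 56.2, 69.5, 66.9 and 60.1 CPM in Sham-LVH and at 161, 147, 147 and 124 CPM in Sham-HF. No value of one group came near the other, and the difference was 2.32-fold (log2 fold change 1.215 with SE 0.10, adjusted p = 0.00013 by edgeR). It belongs to the core, and sedentary hearts spanned 46.9 to 123 CPM, a range that takes in all Sham-LVH values.

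Pdk4 (ENSMUSG00000019577) encodes the kinase that shuts down pyruvate dehydrogenase in fasting. It stood at 35.6, 85.6, 43.2 and 82.3 CPM in Sham-LVH and at 263, 289, 217 and 198 CPM in Sham-HF (3.98-fold, log2 fold change 1.99 with SE 0.31, adjusted p = 0.0207 by edgeR). Every Sham-HF value lay far above every Sham-LVH value, the sedentary range of 86.8 to 150 CPM lay between them, and the Sham-LVH hearts fell into a lower pair (replicates 1 and 3) and a higher pair (2 and 4). The call was lost without Sham-LVH-3, Sham-HF-1 or Sham-HF-3 (adjusted p 0.0712, 0.052 and 0.0646). Angptl4, a secreted lipase inhibitor induced by fasting, stood at 0.570, 1.179, 0.701 and 3.27 CPM against 4.68 to 6.56 CPM without being called (log2 fold change 2.01, edgeR adjusted p = 0.0573), and it was called without Sham-LVH-4 (0.00013) and with DESeq2 (0.0112). Ppara, Mgll, which encodes monoacylglycerol lipase, and the lipid droplet gene Plin4 differed less, with log2 fold changes of 0.46, 0.52 and 0.56 (edgeR adjusted p 0.0294, 0.0199 and 0.0226). Sham-LVH-2 and Sham-HF-3 were each needed for all 3 calls (without them, adjusted p 0.0574 and 0.1 for Ppara, 0.072 and 0.0735 for Mgll, 0.0743 and 0.0905 for Plin4), and further libraries for Ppara (Sham-LVH-3, Sham-LVH-4 and Sham-HF-1, 0.0555 to 0.0837), Mgll (Sham-HF-1, 0.0521) and Plin4 (Sham-LVH-4 and Sham-HF-4, 0.057 and 0.0511). The count of called list members was 1 without Sham-HF-3, 2 without Sham-LVH-2 or Sham-HF-1, 3 without Sham-LVH-3, and 4 or 5 in the remaining fits. With library totals in place of TMM factors it was 2.

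Single genes of fuel oxidation were called higher in Sham-HF. Of all genes tested, 2.2% were called higher. In fatty acid uptake and oxidation 2 of 30 genes were higher (Slc27a1, a fatty acid transporter, 0.48, and Pnpla2, which encodes the triglyceride lipase ATGL, 0.34) and none lower (list median 0.08). In the tricarboxylic acid cycle 2 of 24 were higher (Ogdh and Idh2, both 0.40; list median -0.00). Slc27a1 stayed called only without Sham-LVH-1 or Sham-HF-1 (adjusted p otherwise 0.0706 to 0.102) and Pnpla2 only without Sham-LVH-1 or Sham-HF-2 (otherwise 0.0521 to 0.101). Ogdh was lost without Sham-LVH-2, Sham-LVH-4 or Sham-HF-3 (0.0743, 0.054 and 0.0846) and Idh2 without these, Sham-HF-2 or Sham-HF-4 (0.0597 to 0.1). None of 29 genes of glycolysis and glycogen and none of 54 nuclear genes of the respiratory chain was called (medians 0.08 and -0.17). Without Sham-LVH-1, 9 respiratory chain genes were called lower and 1 higher, where 478 of all 13649 genes tested were lower and 603 higher. With library totals alone the medians of fatty acid oxidation and glycolysis were both -0.00. Of insulin signalling, the docking protein gene Irs1 (ENSMUSG00000055980) stood at 24.6, 24.0, 24.5 and 26.1 CPM in Sham-LVH and 42.8, 39.98, 44.8 and 31.7 CPM in Sham-HF (log2 fold change 0.70 with SE 0.10, adjusted p = 0.00614 by edgeR) and belongs to the core, with close Sham-LVH values and Sham-HF-4 the lowest of the other group. The insulin receptor gene Insr was higher by 0.39 (edgeR adjusted p = 0.036), a call kept only without Sham-LVH-1 or Sham-LVH-4 (otherwise 0.0553 to 0.106). Irs1 and Insr were the 2 genes called of 19 in IGF and growth hormone signalling, where 11 differences were negative (list median -0.08). Igf1 went the other way without being called (-0.58, edgeR adjusted p = 0.0502).

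Single transporter genes were called in either direction. Slc38a3, a glutamine transporter, stood at 24.4, 23.3, 19.4 and 22.4 CPM against 36.1, 39.3, 35.3 and 38.4 CPM (log2 fold change 0.76 with SE 0.09, adjusted p = 0.00349 by edgeR). Slc20a1, a sodium-dependent phosphate carrier, stood at 6.35 to 9.26 CPM against 12.7 to 20.9 CPM (log2 fold change 1.107, edgeR adjusted p = 0.00901). Both belong to the core. Slc41a3, of a family of magnesium transporters, stood at 7.62 to 15.4 CPM against 21.9 to 32.6 CPM (log2 fold change 1.34, edgeR adjusted p = 0.0141, and 0.0562 without Sham-LVH-3). In the other direction, the lipid transporter genes Abca8a and Abca8b were lower: Abca8a (ENSMUSG00000041828) stood at 88.6, 86.0, 95.0 and 85.1 CPM against 48.9, 57.8, 53.5 and 48.6 CPM (log2 fold change -0.75 with SE 0.08, adjusted p = 0.00349 by edgeR), and Abca8b differed by -0.62 (0.00862). They are neighbouring paralogs, and how the authors' counting shared reads between them is not given in the sources used here. Scd2, a fatty acid desaturase gene, stood at 14.8 to 15.6 CPM in Sham-LVH and 8.17 to 10.6 CPM in Sham-HF (log2 fold change -0.76, edgeR adjusted p = 0.00437).

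**Figure D3:**
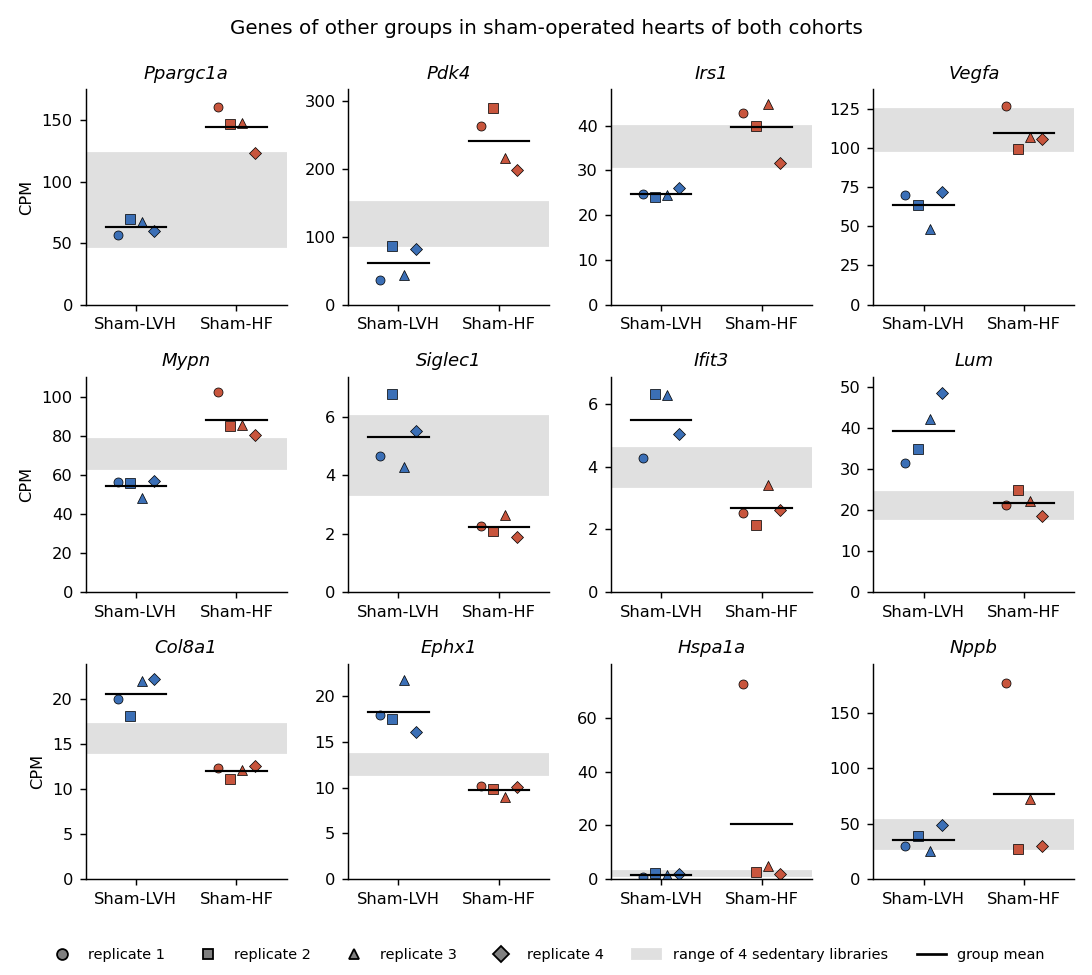
Genes of other groups in the 8 sham hearts. Each panel shows 1 gene in CPM on a linear axis that starts at 0, with points, means and the grey sedentary range as in the plot of clock genes. The groups are separate for the first 10 genes, from Ppargc1a to Ephx1. Hspa1a is raised in Sham-HF replicate 1 (72.6 CPM), and Nppb in Sham-HF replicates 1 and 3 (177 CPM and 72.1 CPM).

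A minority of the immediate early genes was called higher in Sham-HF, unevenly between its hearts. Of 24 tested, 5 were higher (Nr4a3, Maff, Socs3, Btg2 and Jund) and none lower, and 22 of the 24 had a positive difference (median 0.78). The share called higher over all genes tested was 2.2%. Nr4a3 (ENSMUSG00000028341), an orphan nuclear receptor induced rapidly by adrenergic signals, stood at 0.748, 3.03, 0.738 and 1.57 CPM in Sham-LVH and at 10.3, 15.1, 9.07 and 5.85 CPM in Sham-HF (7.17-fold, log2 fold change 2.84 with SE 0.46, adjusted p = 0.0222 by edgeR). Every Sham-HF heart lay above every Sham-LVH heart. The call was lost without Sham-LVH-3, Sham-LVH-4, Sham-HF-1 or Sham-HF-3 (adjusted p 0.0762, 0.063, 0.0541 and 0.0718). Fos stood at 0.285 to 1.07 CPM against 3.59, 3.95, 1.052 and 0.760 CPM, so that 2 Sham-HF hearts were high and 2 overlapped Sham-LVH (log2 fold change 2.06, edgeR adjusted p = 0.0979), and was called without Sham-HF-4 (0.0479) and with DESeq2 (0.00565). The count of called list members was 0 without Sham-HF-3, 1 without Sham-LVH-3, Sham-LVH-4, Sham-HF-1 or Sham-HF-2, 2 higher without Sham-LVH-2, 2 higher and 1 lower without Sham-LVH-1, and 8 without Sham-HF-4. It was 2 once the dependence on GC content was removed, 1 with library totals alone and 11 with DESeq2. Maff, Socs3, Btg2 and Jund differed by 1.25, 1.163, 0.90 and 0.61 (edgeR adjusted p 0.0404, 0.0446, 0.0421 and 0.0356), and Sham-HF-4 was the lowest Sham-HF library for each.

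Cdkn1a, which encodes the cell cycle inhibitor p21 and responds to p53, glucocorticoids and the clock, stood at 1.496, 2.64, 2.55 and 1.99 CPM in Sham-LVH and at 17.4, 9.45, 12.2 and 5.32 CPM in Sham-HF. Its groups did not overlap, and Sham-HF-4 was again the lowest of its group (5.26-fold, log2 fold change 2.39 with SE 0.36, adjusted p = 0.0156 by edgeR). The call was lost without Sham-LVH-2, Sham-LVH-3 or Sham-HF-3 (adjusted p 0.0518, 0.0594 and 0.0572). Of 10 p53 targets and senescence genes, Cdkn1a was higher and Ccng1 lower (-0.47, edgeR adjusted p = 0.0415), with 5 differences of each sign (median 0.02). Of 18 glucocorticoid targets 2 were higher, Cdkn1a and Pdk4, with 9 differences of each sign (median 0.03). Over all genes tested, 2.2% were called higher and 1.44% lower. Ppp1r15a (GADD34), the phosphatase subunit that reverses the stress block on translation, is a core gene and stood at 4.63 to 5.16 CPM against 7.37 to 12.2 CPM (log2 fold change 1.047 with SE 0.15, adjusted p = 0.00524 by edgeR). Nfkb2, of the noncanonical NF-kappaB pathway, also in the core, stood at 5.42 to 6.41 CPM against 8.52 to 10.1 CPM (0.64, edgeR adjusted p = 0.012).

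For heat shock genes 1 heart stood apart. Of 18 genes, 1 was higher, the cochaperone gene Bag3 (38.8 to 47.6 CPM against 57.5 to 96.7 CPM; log2 fold change 0.71, edgeR adjusted p = 0.0312), with a list median of 0.49. Its call was lost without Sham-LVH-2, Sham-LVH-3, Sham-LVH-4 or Sham-HF-3 (adjusted p 0.0971, 0.112, 0.0566 and 0.074). Hspa1a stood at 72.6 CPM in Sham-HF-1 and at 0.677 to 4.76 CPM in the other 7 shams, and its near-identical copy Hspa1b at 39.9 CPM in Sham-HF-1 and 0.701 to 2.96 CPM elsewhere. Neither was called (edgeR adjusted p = 0.213 and 0.296), and counts of these copies may be shared between them. Without Sham-HF-1 the list median was 0.16. Over all genes tested, 2.2% were called higher in Sham-HF. Of 20 genes of endoplasmic reticulum stress, Hyou1 was higher (18.4 to 27.3 CPM against 28.8 to 51.0 CPM; 0.76, edgeR adjusted p = 0.0429). The median of that list was 0.32 with all libraries and 0.12 without Sham-HF-1, and Hyou1 stayed called only without Sham-LVH-1 or Sham-HF-2 (otherwise 0.0521 to 0.14).

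Single genes of the sarcomere and its scaffold were called, most of those described here higher in Sham-HF. Of 21 adult sarcomere genes 2 were higher, Myom2 among them, and none lower (median 0.05), and none of 10 cardiomyocyte markers was called. Over all genes tested 2.2% were called higher. Tcap had the lowest difference of the sarcomere list and was not called (-0.82, edgeR adjusted p = 0.213). Myom2, which encodes a myomesin of the M-band, stood at 340, 249.96, 280.1 and 281 CPM in Sham-LVH and at 352, 427, 420 and 556 CPM in Sham-HF (log2 fold change 0.63 with SE 0.14, adjusted p = 0.0299 by edgeR). The groups did not overlap, but Sham-LVH-1 and Sham-HF-1 lay close to each other. Both calls of the list were lost without Sham-LVH-2 or Sham-HF-3 (adjusted p 0.0977 and 0.0764 for Myom2), and that of Myom2 also without Sham-LVH-3, Sham-LVH-4 or Sham-HF-4 (0.106, 0.0717 and 0.0557). With library totals alone the list median was -0.02.

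Another 3 genes of the Z-disc and its surroundings belong to the core. Nrap and Ankrd23 among them, and Lmod3 below, were chosen after their values were seen. Mypn (myopalladin, ENSMUSG00000020067) stood at 56.2, 56.1, 48.4 and 57.0 CPM against 103, 85.1, 85.9 and 80.4 CPM (log2 fold change 0.72 with SE 0.09, adjusted p = 0.00377 by edgeR). Nrap, which anchors actin filaments at the intercalated disc, stood at 254 to 289 CPM against 358 to 399 CPM (0.51, edgeR adjusted p = 0.00901), and Ankrd23, a titin-binding stretch-responsive gene, at 87.8 to 115 CPM against 136 to 223 CPM (0.87, edgeR adjusted p = 0.011). Lmod3, a leiomodin that nucleates actin filaments, went the other way, at 29.5 to 31.2 CPM against 17.3 to 21.9 CPM (-0.62, edgeR adjusted p = 0.00741). Synpo, a gene of actin-based structures, was higher, at 25.0 to 31.7 CPM against 42.8 to 47.1 CPM (0.67, edgeR adjusted p = 0.00377). All 5 calls held in each leave-one-out fit, and no gene's groups overlapped.

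Genes of excitation showed single differences. Jph2, which ties the sarcoplasmic reticulum to the T-tubule, stood at 67.8 to 103 CPM against 128 to 138 CPM (log2 fold change 0.62, edgeR adjusted p = 0.0135, and 0.0508 without Sham-HF-3), and Cacna1c, the L-type calcium channel, at 174 to 230 CPM against 265 to 326 CPM (0.53, edgeR adjusted p = 0.0205). They were the 2 of 17 calcium handling genes called, compared with 3.64% of all genes tested, and the list median was 0.01. Of 24 potassium and sodium channel genes, Kcnj5, of the acetylcholine-gated current, was lower (27.0 to 32.5 CPM against 16.9 to 22.8 CPM; -0.53, edgeR adjusted p = 0.02) and Kcnk3 higher (0.39, 0.0361). The transcription factor genes Srf and Mef2c differed in opposite directions (0.47 and -0.49, edgeR adjusted p 0.0354 and 0.0339). Calls were lost without Sham-LVH-2 or Sham-HF-3 for Cacna1c (0.0754 and 0.0662), Kcnj5 (0.072 and 0.0764), Srf (0.0743 and 0.104), Mef2c (0.108 and 0.116) and Kcnk3 (0.102 and 0.103). Further losses were those of Cacna1c without Sham-HF-4 (0.0521), of Srf without Sham-LVH-3, Sham-LVH-4 or Sham-HF-1 (0.084 to 0.0922), of Mef2c without Sham-LVH-3, Sham-HF-1 or Sham-HF-4 (0.053 to 0.0879) and of Kcnk3 in all other fits but that without Sham-LVH-1 (0.0622 to 0.0768). With library totals alone the median of the calcium list was -0.06.

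Load markers did not separate the cohorts as a group. Of all genes tested, 1.44% were called lower in Sham-HF. Of 15 tested fetal and load genes 1 was lower, Ankrd1 (CARP, a stretch-induced repressor), at 260, 289, 270 and 367 CPM in Sham-LVH and 249, 172, 165 and 171 CPM in Sham-HF (log2 fold change -0.63, edgeR adjusted p = 0.0372), a call kept only without Sham-LVH-1 or Sham-HF-1 (otherwise 0.0717 to 0.111). The natriuretic peptide gene Nppb stood at 25.1 to 48.8 CPM in Sham-LVH and at 177, 26.8, 72.1 and 30.1 CPM in Sham-HF (log2 fold change 1.119, edgeR adjusted p = 0.386), so that Sham-HF-1 and Sham-HF-3 were high and the other 2 were at the Sham-LVH level. In TAC hearts Nppb stood at 237 ± 43.2 CPM (TAC-LVH) and 356 ± 84.6 CPM (TAC-HF). Nppa stood at 20.7 to 44.2 CPM against 18.3 to 27.0 CPM (-0.55, edgeR adjusted p = 0.202). The slow myosin gene Myh7 stood at 49.97, 20.9, 24.4 and 25.9 CPM against 45.3, 72.2, 67.0 and 81.6 CPM and was not called (1.145, edgeR adjusted p = 0.0921), although it was without Sham-LVH-1 (0.00492) and with DESeq2 (0.017). The adult myosin gene Myh6 differed by 0.14 (edgeR adjusted p = 0.369) and the skeletal actin gene Acta1 by -0.61 (0.207).

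Genes of vessels and matrix were called in both directions. Over all genes tested, 2.2% were called higher and 1.44% lower. Vegfa, Col4a1, Col4a2, Col5a3, Cldn5 and Efemp1 were higher in Sham-HF, and Col8a1, Lum and Pcolce2 lower. Vegfa (ENSMUSG00000023951), the angiogenic factor made by myocytes under low oxygen or high PGC-1alpha, stood at 69.8, 63.7, 48.5 and 71.7 CPM in Sham-LVH and at 127, 99.5, 107 and 106 CPM in Sham-HF (1.75-fold, log2 fold change 0.81 with SE 0.12, adjusted p = 0.00788 by edgeR). It is a core gene and the only one called of 15 hypoxia targets. The basement membrane collagens Col4a1 and Col4a2, a gene pair read from a shared promoter, stood at 120 to 164 CPM against 173 to 255 CPM and at 77.5 to 103 CPM against 120 to 156 CPM (log2 fold changes 0.58 and 0.60, edgeR adjusted p 0.0315 and 0.0154). Of 15 endothelial markers 1 was higher, the tight junction gene Cldn5 (1.00, edgeR adjusted p = 0.0367), the list median was -0.01, and the list sums overlapped at 753 to 824 CPM and 727 to 892 CPM. None of 14 smooth muscle and pericyte markers was called (median -0.06).

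Of 18 collagens 3 were higher (Col4a1, Col4a2 and Col5a3) and 1 lower (Col8a1), with a median of 0.14. Among all genes tested 2.2% were higher and 1.44% lower. The collagen genes Col1a1 and Col3a1 were not called (0.13 and -0.11, edgeR adjusted p 0.726 and 0.783). Of 24 elastic and matricellular genes, Efemp1 was higher (0.64, edgeR adjusted p = 0.0423) and Lum lower. Col8a1 (ENSMUSG00000068196), a short-chain collagen of vessels and scar, stood at 20.1, 18.2, 22.1 and 22.2 CPM against 12.3, 11.2, 12.1 and 12.6 CPM (log2 fold change -0.76 with SE 0.09, adjusted p = 0.00349 by edgeR), with tight groups that lay well apart. Lum (ENSMUSG00000036446), the gene of the collagen-binding proteoglycan lumican and a fibroblast marker, stood at 31.5, 35.0, 42.3 and 48.5 CPM against 21.2, 24.9, 22.2 and 18.6 CPM (-0.84, SE 0.13; edgeR adjusted p = 0.00974). Both are core genes, as is Angptl2, a secreted factor (40.3 to 49.5 CPM against 22.0 to 30.7 CPM; -0.75, edgeR adjusted p = 0.00684). The procollagen enhancer gene Pcolce2 stood at 7.26 to 9.78 CPM against 4.62 to 5.52 CPM (-0.70, edgeR adjusted p = 0.0149), a call lost without Sham-LVH-2 or Sham-HF-3 (0.0506 and 0.0675). Lum was the only one of 14 resident fibroblast markers called (4 without Sham-LVH-1, 2 without Sham-HF-1), and their sums were 960 to 1247 CPM against 812 to 1112 CPM. Over all genes tested, 1081 were called without Sham-LVH-1 and 219 without Sham-HF-1. The 3 higher collagens lost their calls without Sham-LVH-2 or Sham-HF-3 (adjusted p 0.104 and 0.1 for Col4a1, 0.0602 and 0.0664 for Col4a2, 0.0889 and 0.0869 for Col5a3), Col4a1 and Col5a3 also without Sham-LVH-3 or Sham-HF-1 (0.0726 to 0.0881), Col5a3 also without Sham-LVH-1 or Sham-HF-4 (0.0538 and 0.0504). Cldn5 stayed called only without Sham-LVH-2 or Sham-HF-4 (otherwise 0.0576 to 0.104).

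Some macrophage and interferon genes were lower in Sham-HF, 5 of 17 and 2 of 24, compared with 1.44% of all genes tested. Of the 17 macrophage and monocyte markers those called were Cbr2, Cd68, F13a1, Csf1r and Mrc1, none was higher, 16 of 17 had a negative difference, and the median was -0.53. Red cell markers had a like median, -0.51, with 6 of 6 differences negative and none called, and summed to 403 to 695 CPM against 348 to 450 CPM, and their part in the result was not tested. The macrophage list summed to 186, 274, 273 and 267 CPM in Sham-LVH-1 to 4. In Sham-HF-1 to 4 it summed to 205, 153, 178 and 135 CPM, so that Sham-LVH-1, the lowest of its group, overlapped Sham-HF. Cbr2, a marker of tissue-resident cardiac macrophages, stood at 5.63, 11.3, 9.22 and 6.69 CPM against 3.68, 4.12, 3.76 and 2.92 CPM (log2 fold change -1.14 with SE 0.20, adjusted p = 0.0156 by edgeR, and 0.064 without Sham-HF-3). Csf1r, the receptor of their growth factor, stood at 22.5 to 35.2 CPM against 16.4 to 21.7 CPM (-0.63, edgeR adjusted p = 0.0224), and was lost without any of Sham-LVH-2, 3 and 4 and Sham-HF-3 and 4 (0.0541 to 0.0747). Cd68, F13a1 and Mrc1 differed by -1.09, -0.79 and -0.60 (edgeR adjusted p 0.0238, 0.0174 and 0.021). Outside the list, the sialic acid receptor gene Siglec1 (ENSMUSG00000027322, CD169) stood at 4.67, 6.79, 4.28 and 5.52 CPM against 2.26, 2.08, 2.65 and 1.87 CPM (-1.23, SE 0.17; edgeR adjusted p = 0.00524) and is a core gene, and the phagocyte oxidase gene Cybb stood at 6.34 to 8.67 CPM against 2.95 to 4.86 CPM (-0.96, edgeR adjusted p = 0.011, and 0.0508 without Sham-HF-3). In RNA from whole tissue, fewer cells of a type and less RNA per cell cannot be told apart. The count of called markers was 0 without Sham-HF-3, 1 without Sham-LVH-3, 2 without Sham-LVH-2, 3 without Sham-LVH-4 or Sham-HF-4 and 7 without Sham-LVH-1, while the median stayed between -0.62 and -0.45.

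Of 24 interferon response genes 2 were lower, Ifit2 and Ifit3, which encode RNA-binding antiviral proteins and are both core genes. Ifit3 (ENSMUSG00000074896) stood at 4.27, 6.34, 6.31 and 5.05 CPM against 2.53, 2.12, 3.41 and 2.63 CPM (log2 fold change -1.02 with SE 0.18, adjusted p = 0.0121 by edgeR), and Ifit2 at 7.09 to 8.86 CPM against 3.41 to 5.16 CPM (-0.80, edgeR adjusted p = 0.0127). The interferon-induced Ifi27l2a, a core gene outside the list, stood at 4.67, 9.15, 7.60 and 6.87 CPM against 3.27, 2.69, 2.91 and 2.51 CPM (-1.28, edgeR adjusted p = 0.00702). Over the list 20 of 24 differences were negative (median -0.26), and Ifit2 and Ifit3 stayed the list's only calls in every leave-one-out fit. Of 15 complement genes, C1qb was lower (-0.64, edgeR adjusted p = 0.0422), a call kept only without Sham-LVH-1 or Sham-HF-1 (otherwise 0.0525 to 0.117), and 14 of the 15 differences were negative (median -0.29). Without Sham-LVH-1, 6 complement genes were lower and without Sham-HF-1, 2. Over all genes tested, 1.44% were called lower with all libraries. That count was 478 of 13649 without Sham-LVH-1 and 99 of 13956 without Sham-HF-1. Lymphocyte markers summed to between 2.16 and 5.02 CPM in the 8 hearts.

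The detoxifying enzyme genes Ephx1 and Gsta3 were lower. Ephx1 (ENSMUSG00000038776), the microsomal epoxide hydrolase, stood at 17.9, 17.5, 21.7 and 16.0 CPM against 10.1, 9.84, 9.02 and 10.1 CPM (log2 fold change -0.89 with SE 0.11, adjusted p = 0.00349 by edgeR), and the glutathione transferase gene Gsta3 at 5.09, 5.67, 7.45 and 3.56 CPM against 2.39, 2.08, 1.803 and 1.75 CPM (-1.41, SE 0.22; edgeR adjusted p = 0.00862). Both are core genes and their groups did not overlap. Of 21 antioxidant genes and targets of NRF2 these 2 and Gpx1 were lower and Gclc higher (-0.62 and 0.52, edgeR adjusted p 0.0447 and 0.0339), with a median of 0.03 (-0.05 with library totals alone). The shares over all genes tested were 1.44% lower and 2.2% higher. Gpx1 stayed called only without Sham-LVH-1 (otherwise 0.0631 to 0.125) and Gclc only without Sham-LVH-1 or Sham-HF-2 (otherwise 0.0642 to 0.103).

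Of 18 tested genes of postnatal growth and imprinting 2 were higher, H19 and Gnas, and 1 lower, Cdkn1c. Over all genes tested, 2.2% were called higher and 1.44% lower. The maternally expressed noncoding RNA H19 (ENSMUSG00000000031), abundant in the fetus and silenced after birth, stood at 4.70, 4.43, 4.10 and 4.91 CPM in Sham-LVH and at 8.88, 6.42, 7.21 and 9.24 CPM in Sham-HF (1.76-fold, log2 fold change 0.82 with SE 0.14, adjusted p = 0.0116 by edgeR), and is a core gene. Its reciprocally imprinted neighbour Igf2 did not follow, at 6.00 to 9.57 CPM against 7.56 to 9.85 CPM (0.17, edgeR adjusted p = 0.536). Cdkn1c, which encodes the growth-restricting inhibitor p57, stood at 3.52 to 5.39 CPM against 1.61 to 2.57 CPM (-0.94, edgeR adjusted p = 0.0205), a call lost without Sham-LVH-2, Sham-LVH-3, Sham-HF-1 or Sham-HF-3 (0.0603, 0.0517, 0.0502 and 0.0747). Gnas, the gene of the stimulatory G protein subunit, differed by 0.41 (edgeR adjusted p = 0.0492) and stayed called only without Sham-LVH-1 (otherwise 0.0778 to 0.147). None of 21 cell cycle genes (1 without Sham-HF-1) and none of 8 Dachsous, Fat and Celsr cadherin genes was called. Dchs2, named in the title of the series, stood at 0.812 to 1.496 CPM against 0.935 to 1.52 CPM (0.24, edgeR adjusted p = 0.623) and Dchs1 at 11.9 to 21.7 CPM against 15.6 to 17.3 CPM (-0.01, 0.967).

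Other core genes, of diverse roles, are given here as examples. Higher in Sham-HF were Miga2, a mitochondrial fusion gene (21.0 to 24.4 CPM against 31.1 to 41.0 CPM; 0.75), the centrosomal Cep85 (17.8 to 20.6 CPM against 25.9 to 32.6 CPM; 0.72), Vwa3a (1.99 to 2.42 CPM against 3.73 to 5.34 CPM; 1.158), the RNA-binding regulator Arid5a (2.18 to 4.06 CPM against 6.03 to 8.88 CPM; 1.207), Zfhx2 (2.36 to 4.52 CPM against 6.96 to 8.10 CPM; 1.163), Tacc2 (246 to 336 CPM against 383 to 570 CPM; 0.77) and the Hippo pathway gene Amotl2 (20.3 to 25.0 CPM against 28.8 to 34.7 CPM; 0.56). Lower were the tetraspanin gene Tspan4 (9.15 to 13.4 CPM against 3.51 to 5.79 CPM; -1.32) and the membrane progestin receptor gene Paqr7 (6.69 to 9.93 CPM against 3.18 to 4.21 CPM; -1.14). The second value given for each is its log2 fold change, and edgeR adjusted p ran from 0.00377 (Miga2, Cep85, Tspan4 and Paqr7) to 0.011 (Amotl2).

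Ribosomal protein genes had small differences of mostly 1 sign, and none was called. All but 3 of 80 cytosolic ribosomal protein genes had a negative difference (median -0.25) and all but 8 of 76 mitochondrial ones (median -0.18), against a median of -0.01 over all genes. The cytosolic list summed to 3870 to 5555 CPM in Sham-LVH and 3571 to 4037 CPM in Sham-HF, with overlap. Without Sham-LVH-1, 17 cytosolic and 8 mitochondrial ribosomal protein genes were called lower and 1 cytosolic higher, and DESeq2 with all libraries called 5 and 2 lower. Over all genes tested, 478 of 13649 were called lower and 603 higher without Sham-LVH-1. DESeq2 called 320 of 13003 lower. At an unadjusted p under 0.05, 2985 genes were counted over the whole table.

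**Figure D4:**
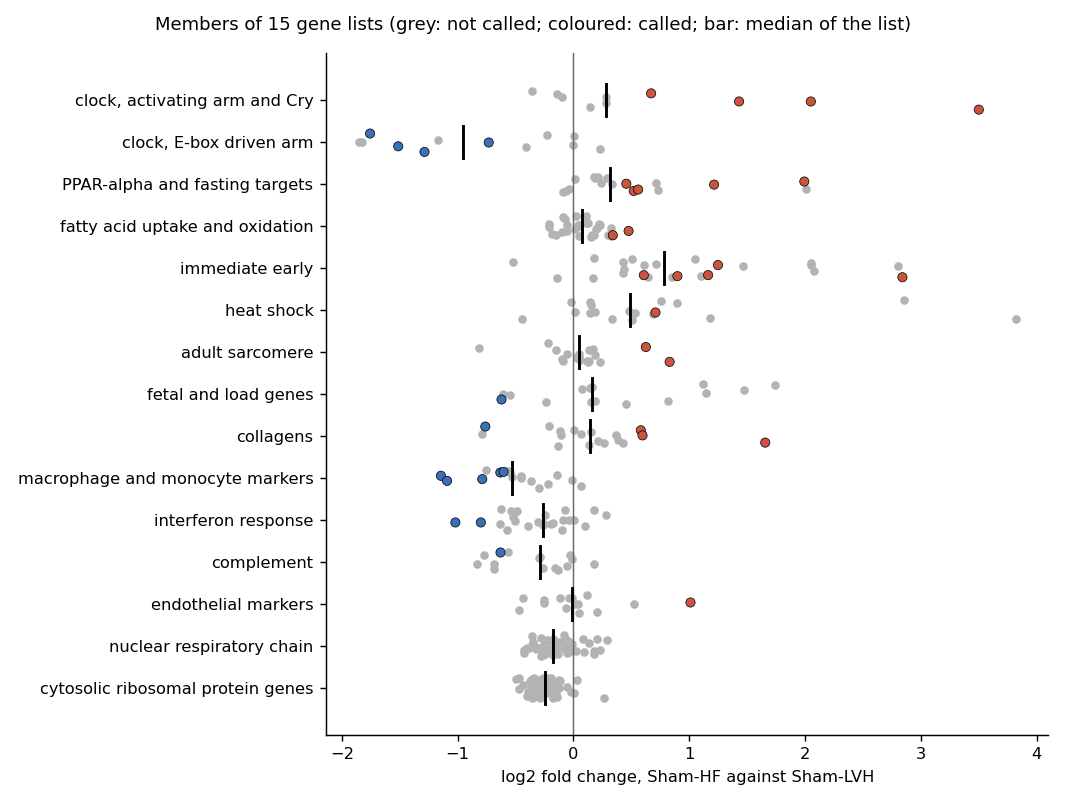
Members of 15 gene lists. Each point is a gene at its log2 fold change of Sham-HF against Sham-LVH, grey where it was not called, red where called higher and blue where called lower, and the bar is the list's median. The E-box arm of the clock has the lowest median (-0.95) and the immediate early genes the highest (0.78), while the ribosomal protein genes form a tight group at -0.25 with no call.

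The calls went with the base composition of the transcripts. Median transcript GC content was 55.6% in genes called higher, 47.3% in genes called lower and 50.3% over the 13567 genes with a value, and its Spearman correlation with the log2 fold change across genes was 0.25 in shams and 0.22 in the TAC comparison. With each library's dependence on GC content removed as an offset, 299 genes were called, 268 of them among the 497, and all 50 core genes stayed. Of the genes described here, those then not called are Nfil3, Plin4, Pnpla2, Slc27a1, Idh2, Cldn5, Col4a1, Col5a3, Mrc1, Jund, Maff, Socs3, Hyou1, Srf, Mef2c, Kcnk3, Ankrd1, Gnas, Gpx1 and Pitpnm1, with edgeR adjusted p of 0.0501 (Plin4) to 0.297 (Jund). The part of GC content in the other calls was not tested.

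The same cohort step was then read in TAC hearts, whose libraries share none with the shams. The numbers in the library names run in a separate block for each cohort, in shams and TAC hearts alike. Library order, whose meaning the labels do not give, therefore cannot be told apart from cohort in either comparison. The TAC reading is thus not an independent repeat, and the part of library order was not tested. TAC-HF and TAC-LVH differ in the time under load as well as in cohort, and 2827 of 14084 genes (20.1%) were called between them, 1518 (10.8%) higher and 1309 (9.29%) lower in TAC-HF. Of the 494 sham calls tested there, 434 (87.9%) had the same sign, compared with 60.6% of the 13440 genes tested in both. In all, 252 were called in the same direction, which is 50.7% of the sham calls and 8.91% of the TAC calls, and 3 in the opposite direction. Among the genes higher in Sham-HF 160 of 299 were also called higher in TAC-HF, and among those lower 92 of 195 were called lower.

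Genes that took the same direction in both include Pdk4 (log2 fold change 1.99 in shams and 2.48 in TAC hearts), Nr4a3 (2.84 and 2.40), Nfil3 (1.43 and 1.67), Ppargc1a (1.215 and 0.79), Ppp1r15a (1.047 and 0.89), Mypn (0.72 and 0.83), Vegfa (0.81 and 0.62), Hlf (-1.51 and -0.97), Lum (-0.84 and -1.22), Col8a1 (-0.76 and -0.85), Cybb (-0.96 and -1.32) and Ifit3 (-1.02 and -0.69), each called in both with edgeR. Of the PPAR-alpha and fasting list 13 of 18 genes were higher in TAC-HF, compared with 10.8% of all genes tested there. Of the macrophage markers 8 of 17 were lower, compared with 9.29%. The E-box arm of the clock had a TAC median of -0.29 with 2 lower and 1 higher of 12, and Arntl differed by 1.148 without being called (edgeR adjusted p = 0.081). Of the collagens 13 of 18 were lower in TAC-HF, with a median of -0.85.

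**Figure D5:**
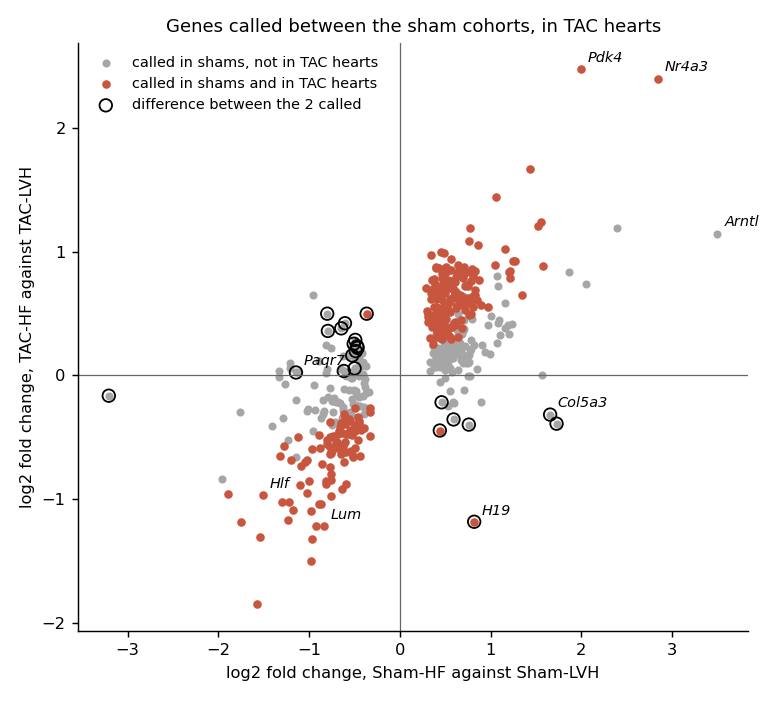
The genes called between the sham cohorts, in TAC hearts. Each point is 1 of the 494 genes called in shams and tested in both comparisons, at its log2 fold change in shams (x axis) and in TAC hearts (y axis). Most points, 434, lie in the quadrants of equal sign, and H19 lies in the lower right at 0.82 and -1.18.

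The difference between the sham step and the TAC step was itself tested. It contains the sham difference by which the 497 sham calls were chosen, so its share among them cannot be compared with that among all genes. This interaction was called for 196 of 14463 genes (1.36%) and for 22 of the 497 sham calls (4.43%). H19 had the smallest p among them: it was higher in Sham-HF than in Sham-LVH (7.94 ± 1.34 and 4.54 ± 0.353 CPM) and lower in TAC-HF than in TAC-LVH (3.07 ± 0.753 and 7.00 ± 1.155 CPM; interaction -2.01, edgeR adjusted p = 0.000245), and the interaction was called with each of the 16 libraries left out in turn (-2.18 to -1.89). Taco1, a factor for translation of the mitochondrial subunit COX1, had the opposite pattern (-0.37 in shams and 0.50 in TAC hearts; interaction 0.85, edgeR adjusted p = 0.0133). Pitpnm1, a phosphatidylinositol transfer gene, differed by 0.44 and -0.45 (interaction -0.90, edgeR adjusted p = 0.0148). Those 3 genes were each called in both comparisons and are the only 3 with opposite directions in the edgeR fits. Paqr7 differed by -1.14 in shams and by 0.02 in TAC hearts (interaction 1.157, edgeR adjusted p = 0.0216), and Tgfb1i1, a focal adhesion coactivator, by 0.76 and -0.40 (-1.17, 0.0216). Both interactions were lost without Sham-LVH-2 (0.0549 for each) and that of Paqr7 without Sham-HF-3 (0.0502). The number of interaction calls was 22 without Sham-LVH-2 and 654 without Sham-LVH-1, and lay between these with any other library left out.

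Unoperated sedentary hearts lay nearer to Sham-HF for most called genes. Of the 301 genes higher in Sham-HF, the sedentary mean was nearer to the Sham-HF mean for 250 and nearer to the Sham-LVH mean for 51, and of the 196 lower genes it was nearer to Sham-HF for 157 and to Sham-LVH for 39. Among the higher genes the sedentary mean lay between the sham means for 178, above both for 116 and below both for 7, and among the lower genes it lay between for 128, below both for 66 and above both for 2. For Vegfa the sedentary range was 98.1 to 125 CPM and for Lum 17.8 to 24.4 CPM, in both cases apart from all Sham-LVH values. Siglec1, at 3.32 to 6.04 CPM, and Scd2, at 11.9 to 15.7 CPM, were exceptions, with sedentary ranges that lay above all Sham-HF values. The sedentary hearts belong to the exercise part of the study, so that operation and cohort both differ in this reading, and it was not tested. The same counts were not made over all genes tested. A position particular to the called genes therefore cannot be told apart from a general offset of the sedentary libraries.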

How the data were processed

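RNA of 24 mouse hearts was profiled. The 8 sham libraries were compared, with 4 TAC-HF, 4 TAC-LVH and 4 sedentary libraries as references. The authors deposited unnormalized estimated counts per gene, as whole numbers. FastQC, Salmon and mm9 appear in the record per the submitters' processing notes. Versions, annotation, strandedness and gene summing are not stated in the sources used. Of 43432 gene identifiers 42548 were named through GENCODE M21 (GRCm38), and 1 line naming no gene was left out. As the builds differ, coordinates are given only for RefSeq sequences.

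Each comparison was fitted on its own libraries (the interaction on 16) with edgeR 4.0.16 in R 4.3.3, using filterByExpr, TMM, a robust quasi-likelihood fit, a two-sided test and Benjamini-Hochberg adjustment over all genes tested, with calls under 0.05. CPM use TMM over all 24 libraries. Shares were tested by exact permutation (70 arrangements). The fit was tested on simulated counts. Alternatives were other normalizations and filters, DESeq2 1.42.0, a fit on all 24 libraries, a replicate block, each library left out and, chosen after seeing the data, offsets for GC content and transcript length. Depth was 18972525 to 30353572 counts per sham library.

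The comparison, the 53 gene lists and the rules were chosen with earlier results of these data known. Lists are described by counts and medians without a test. Genes were eligible by rule: the 12 largest called changes in each direction with a mean of at least 2 CPM and no overlap, the 10 smallest p in each direction, up to 4 members per list by p, a set of heart, clock and check genes, the 10 with the largest spread, and the 5 smallest interaction p in each direction among sham calls. Not all are described, and 1 gene is not reported here. Cry1, Per1, Per3, Wee1, Ppara, Cd68, Cybb, Socs3, Fos, Nrap, Tacc2, Lmod3, Ankrd23, Abca8b, Nfkb2 and Slc20a1 fall outside that rule or its limit per list and were chosen after their values were seen.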

Additional observations from a re-analysis of the deposited data

Results flagged for a closer look

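Values were scanned in 2 ways. In each group of 4 the gap between the highest or lowest library and its neighbour was set against the range (Dixon's test), which chance passes in about 1 in 20 groups and which 21 of the 312 groups scanned passed, and called genes were checked for a different cohort step in TAC hearts.

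Sham-HF-1 stood alone in its group at 72.6 CPM for Hspa1a (others 1.81 to 4.76), 39.9 CPM for Hspa1b (0.818 to 2.96) and 249 CPM for Ankrd1 (165 to 172). Sham-HF-4 was highest for Ciart at 2.105 CPM (others 1.04 to 1.202), for Nr1d1 at 42.7 CPM (25.1 to 27.2) and for Cacna1c at 326 CPM (265 to 275). Sham-HF-2 was highest for Per1 at 32.8 CPM (13.6 to 15.4) and lowest for Vwa3a at 3.73 CPM (5.31 to 5.34), and its skeletal muscle markers summed to 24.7 CPM (others 32.1 to 32.7). Sham-HF-3 was highest for Nppa at 27.0 CPM (18.3 to 19.6).

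Sham-LVH-1 was the lowest of its group in the summed macrophage and monocyte markers at 186 CPM (others 267 to 274), in complement genes at 299.57 CPM (444 to 465) and in fatty acid uptake and oxidation at 6729.5 CPM (others 8052 to 8312). It was highest for Myh7 at 49.97 CPM (20.9 to 25.9), Miga2 at 24.4 CPM (21.0 to 21.2) and Cep85 at 20.6 CPM (17.8 to 18.2). Sham-LVH-2 was lowest in summed endothelial markers at 753 CPM (812 to 824). Sham-LVH-3 was lowest for Mypn at 48.4 CPM (56.1 to 57.0) and highest for Maff at 2.18 CPM (1.175 to 1.29). Sham-LVH-4 was highest for Col5a3 at 9.79 CPM (3.62 to 4.56) and lowest for Per1 at 9.93 CPM (21.7 to 23.7).

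The cohort step in TAC hearts differed from that in shams, by the interaction test of edgeR, for H19 (-2.01, adjusted p = 0.000245), Taco1 (0.85, 0.0133), Pitpnm1 (-0.90, 0.0148), Paqr7 (1.157, 0.0216), Tgfb1i1 (-1.17, 0.0216), Lmod3 (0.64, 0.037) and Col5a3 (-1.98, 0.0373), each value being the log2 fold change in TAC hearts minus that in shams.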

How the results depend on the processing

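The 497 genes called between the sham cohorts kept their direction under every alternative in which they were tested. As the groups of 481 of them do not overlap, a reversal was hardly possible. The number called did not hold. It was 768 with no filter on low counts, 840 with DESeq2, 299 with GC content as an offset and 57 to 1081 with 1 library left out. Genes called higher (301) numbered 111 with library totals alone, 520 with DESeq2, 179 with the GC offset and 34 to 603 with 1 library left out. Genes called lower (196) numbered 372 with no filter, 320 with DESeq2, 300 in the fit on all 24 libraries, 120 with the GC offset and 23 to 478 with 1 library left out. Sham calls shared with TAC hearts (252) numbered 398 with DESeq2, 154 with the GC offset and 35 to 365 with 1 library left out. The interaction (196 calls) gave 30 with library totals alone, 667 with DESeq2, 461 with a replicate block, 297 with the GC offset, 362 with the length offset and 22 to 654 with 1 library left out. The TAC comparison gave 1895 to 2661 calls with 1 library left out. The difference in the 7SL share was -0.85 percentage points, and -1.09 to -0.60 with 1 library left out, with an exact permutation p of 0.0286 without Sham-HF-1. That in the haemoglobin share was -0.0164 percentage points, and -0.0216 to -0.0123, with an exact permutation p of 0.0286 without Sham-LVH-1. Signs turned for Per1 (-0.00, and -0.41 to 0.12 with 1 library left out) and Dchs1 (-0.01, -0.15 to 0.15, and 0.016 with the replicate block), neither of them called. The causes were not tested.

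Same-numbered shams correlated at -0.09, 0.04, 0.12 and 0.03 in their deviations from the group means. Of 4 Sham-LVH libraries, 1 correlated best with its own number. These values were not tested and cannot exclude that the numbers pair the samples. With the replicate block 484 genes were called in the sham comparison, 380 of them among the 497.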
